A study of Mus musculus with 16 samples.

Results

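The genes described here are those whose mRNA changed in the same direction in C57 and in MRL flexor tendon at 7 days post-injury (dpi). They were chosen by measured values from 14 of the 16 RNA-seq libraries of the series. A gene was taken where the injury term of a fit with strain and injury passed an adjusted p of 0.05 (Benjamini-Hochberg, edgeR quasi-likelihood test) with a change of more than 2-fold, and where the change had the same sign and exceeded 2-fold in each strain taken separately. Of 49568 genes counted 16391 were tested, and 1042 met the rule, 813 of them higher and 229 lower after injury. Since these fold changes chose the genes, they are given as descriptions and no p-value of them is used.

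The tissue was the deep digital flexor tendon of the third hind-paw digit of male mice aged 9 to 11 weeks, either uninjured or 7 days after a partial laceration. C57BL/6J (C57) is a standard inbred laboratory strain, and MRL/MpJ (MRL) is an inbred strain known for healing some wounds with little scar. No group carried a transgene. The operated mice also had a sutured skin incision, ketamine and xylazine anaesthesia and buprenorphine, and the part of these in the injury values cannot be told apart from that of the wound. Each of the 4 groups had 4 libraries: C57 uninjured, C57 injured, MRL uninjured and MRL injured. Tendons were not cleared of sheath and peritendinous tissue, so a library holds the RNA of every cell in the piece, and the uninjured tendon stood in for the tendon before wounding, with no sham-operated group among the libraries.

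A cut tendon first fills with leukocytes and a provisional matrix, then with dividing stromal cells that lay down new collagen. Monocytes that enter the wound become macrophages, which take up debris, present antigen on MHC class II molecules and release chemokines that draw in further cells. Tenocytes, the resident fibroblasts, are sparse and rarely divide in the adult, and are marked by the transcription factors Scx and Mkx and the membrane protein Tnmd. In bulk RNA, a higher level of a gene in each cell and a larger number of the cells that express it cannot be told apart.

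Levels are given in CPM, counts scaled to the same normalised library size. The libraries held 12552424 to 23741648 counts on genes, and the MRL injured libraries were the deepest (18524170 to 23741648). Uninjured replicate 4 of each strain was left out of the fit, and values given for uninjured tendon are those of the 3 libraries per strain that were fitted unless the left-out library is named. The left-out C57 library had 10.5% of its counts on a list of epidermal genes, against at most 0.140% in the 14 libraries fitted. Its rank correlation with the other uninjured C57 libraries was 0.807 to 0.841. Its summed level was below theirs for many lists, such as leukocyte genes (176 against 372 to 488 CPM) and provisional matrix genes (7006 against 19587 to 20926 CPM). For several other lists, among them cell cycle and MHC class II genes, its summed level was above theirs. The summed level of 20 stress and immediate early genes was 13084 CPM in the left-out MRL library. Among the libraries kept, C57 injured replicate 1 had 9.67% of its counts on skeletal muscle genes and replicate 2 had 0.303%, against at most 0.003% in the others. Tenocyte markers were present in every library: Tnmd lay between 33.2 and 624 CPM and Scx between 44.1 and 186 CPM over all 16 libraries.

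The injury term, which averages the strains, called 972 genes higher (5.93% of those tested) and 364 lower (2.22%). Of these 1336 genes, 1332 had the same sign in both strains and 4 had opposite signs, which a choice by the average of the strains largely fixes. Of the 1332, 290 were under 2-fold in a strain, 182 of them in C57 only and 108 in MRL only. The other 1042 were the shared genes, 78.0% of those called, so that shared risers made up 4.96% and shared fallers 1.4% of all genes tested.

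The shared risers had a median log2 fold change of 2.65 and the shared fallers one of -1.72, beside 0.01 for all genes tested. Split by strain, the risers had medians of 2.37 in C57 and 2.93 in MRL, and the fallers of -1.67 and -1.64. Genes with at most 3 counts in every uninjured library of a strain have a fitted fold change that depends on the prior count. Where the injured libraries of that strain exceeded this floor, such genes were set to the bound that 3 counts per library allow. This applied to 129 risers in C57 and 153 in MRL, and the medians of the risers were then 2.23 and 2.52. Risers also at or under 3 counts in every injured library of a strain kept the fitted value, so 2-fold there was not measured. Flt4, with 0.046 CPM in MRL injured replicate 2, is an example. Altogether 40 risers had no count in any of the 6 uninjured libraries fitted, and 101 had at most 3 counts in each of them. Only 7 fallers were at or under 3 counts in each of the 8 injured libraries. Within a strain, 18 fallers in C57 and 14 in MRL were near that floor after injury.

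**Figure D1:**
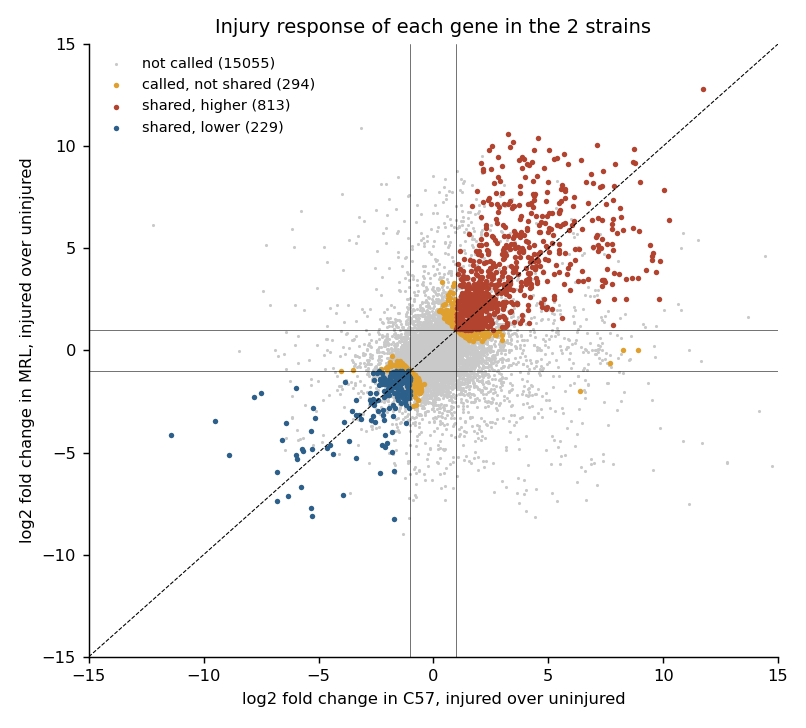
Log2 fold change of injured over uninjured tendon for 16391 genes, in C57 on the horizontal and in MRL on the vertical axis, from 14 libraries. Red points are the 813 shared risers, blue points the 229 shared fallers, orange points the 294 genes called but not shared and grey points the genes not called, and thin lines mark 2-fold. Red and blue points fill the upper right and lower left corners because the rule asks for it, and the spread about the dashed diagonal holds both differences between strains and estimation error.

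For 676 shared genes (510 risers and 166 fallers) the injured and uninjured libraries fitted did not overlap in either strain. Over all genes tested, 1431 (8.73%) had libraries without overlap in both strains and in the same direction. The gene just inside the limit on the adjusted p was Klk7, a skin protease (0.04996), and the gene just outside it was Fam19a3 (0.05004). On the fold change, Lhx2, a limb transcription factor, was just inside with a log2 fold change of -1.0002 in MRL, and Zfhx4 was just outside with -0.9994.

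Gene lists for processes and cell types were used to sort the shared genes. Each list's count is to be read beside the shares over all genes tested, 4.96% shared risers and 1.4% shared fallers. Leukocyte, MHC class II, cell cycle and macrophage lists held the highest shares of shared risers. Lists for endothelium and pericytes (20 tested), contractile myofibroblast genes (18), mast cells (9), erythroid cells (5) and skeletal muscle (12) held no shared gene by edgeR on these 14 libraries. DESeq2 gave 1 shared mast cell gene and 2 shared erythroid genes, and leaving out a library gave at most 2 shared genes in any of these lists.

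**Figure D2:**
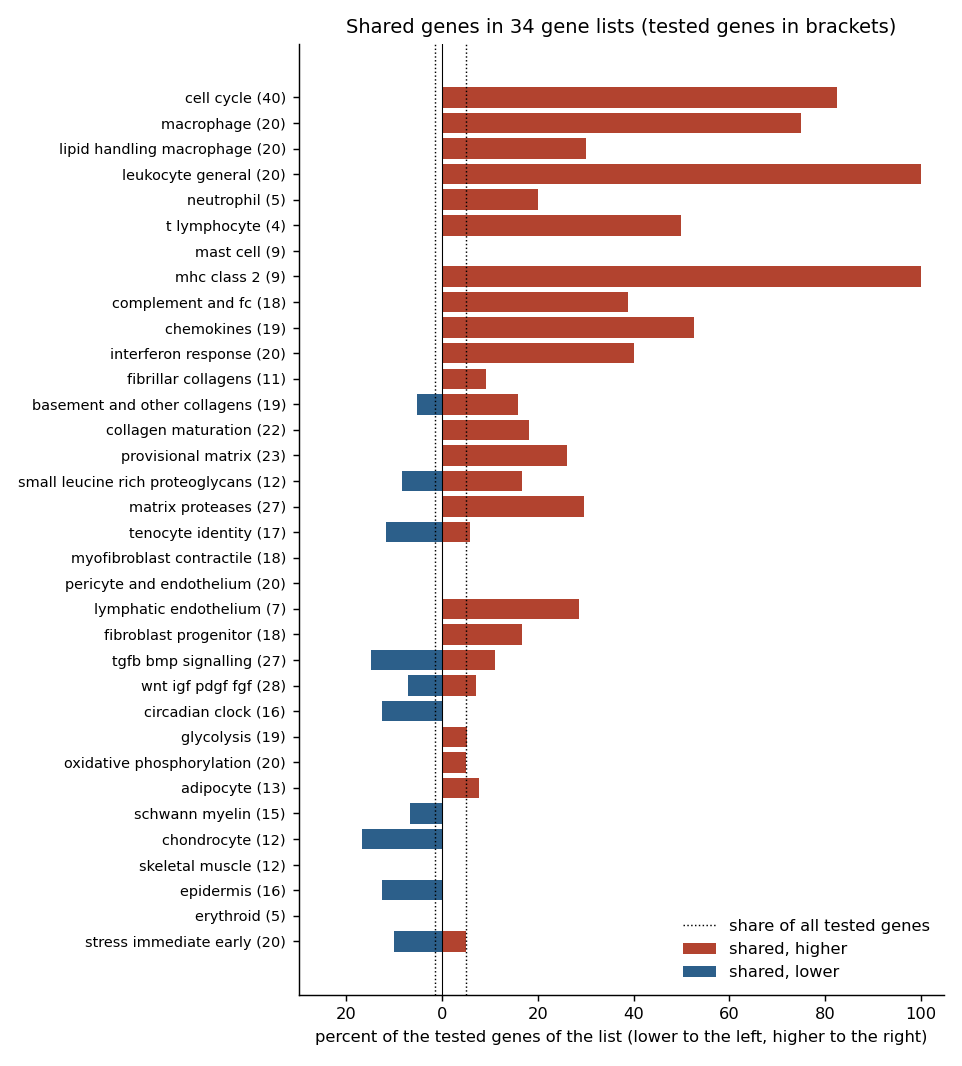
Percent of the tested genes of each of 34 gene lists that were shared risers (red, to the right) or shared fallers (blue, to the left), with the number of tested genes in brackets. Dotted lines mark the shares among all tested genes, 4.96% for risers and 1.4% for fallers. All 20 general leukocyte genes and all 9 MHC class II genes were shared risers, and 33 of 40 cell cycle genes.

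The list of the cell division cycle held more shared genes than any other of the 34 lists. Of 40 tested, 36 were called, all of them higher, and 33 were shared. The list's median log2 fold change was 4.45 (3.62 in C57 and 4.68 in MRL). Its summed level was 281 to 306 CPM in the uninjured C57 libraries and 464 to 1741 CPM in the injured ones, and it was 204 to 237 CPM and 1146 to 3350 CPM in MRL. The ranges did not overlap in either strain, and the injured libraries of each strain spread widely.

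Mki67 encodes a nuclear protein made by cycling cells (chromosome 7, 135689784 to 135716361, GRCm38). It was at 3.94, 3.93 and 4.29 CPM in the uninjured C57 libraries and at 28.5, 65.5, 74.0 and 19.7 CPM in the injured ones. In MRL it was at 1.88, 2.40 and 0.181 CPM without injury and at 79.5, 104, 36.5 and 98.7 CPM with it. Every injured library lay above the 6 uninjured libraries fitted, with a log2 fold change of 4.53 ± 0.60 (SE), while the left-out C57 library had 65.2 CPM. Rrm2, the ribonucleotide reductase subunit that supplies deoxynucleotides for DNA synthesis, was at 15.1, 14.01 and 17.7 CPM in uninjured C57 tendon and at 51.4, 86.9, 158 and 27.8 CPM after injury. In MRL it stood at 8.37, 14.7 and 7.72 CPM before and 230, 262, 120 and 475 CPM after injury. The lowest injured MRL value of Rrm2 was below the highest injured C57 value, so the injured groups of the 2 strains overlapped.

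Birc5, or survivin, which acts in chromosome segregation and cell survival, was at 0.546 to 1.36 CPM in uninjured and 8.46 to 68.0 CPM in injured C57 tendon. In MRL its range was 1.27 to 3.21 CPM without and 34.1 to 180 CPM with injury. Anln, the cytokinesis scaffold anillin, had a log2 fold change of 3.34 in C57 and 7.32 in MRL. Cdk1, the kinase that drives entry into mitosis, had 4.23 and 7.15, and its partners Ccnb1 (4.98 and 5.81) and Ccnb2 (4.06 and 5.88) moved with it. Plk1, a mitotic kinase (4.13 and 4.58), and Cdc20, the activator of the anaphase-promoting complex (2.23 and 3.14), were also shared. Of genes that act in DNA replication, Mcm5 (log2 fold change 2.02) was shared, and Tyms (1.34), Mcm2 (1.24) and Mcm3 (1.15) were called but did not reach 2-fold in each strain. The inhibitor Cdkn1a, which arrests the cycle, was not called (log2 fold change -0.18 ± 0.18, adjusted p 0.544, edgeR). It had -0.52 in C57 and 0.17 in MRL, and -0.59 over both strains with all 16 libraries.

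Several of the largest rises belonged to mitosis as well. Spag5, a spindle protein, had no count in the uninjured C57 libraries fitted and 4.16 to 11.8 CPM in injured, at least 36.7-fold higher. Gsg2, the histone kinase haspin, and the transcription factor E2f8 had no count in any of the 6 uninjured libraries fitted. For Gsg2 the injured C57 libraries had 0.811, 4.36, 6.62 and 0.789 CPM and the injured MRL libraries 7.94, 5.32, 4.41 and 10.1 CPM, at least 14.9-fold and 34.6-fold higher. Troap and Depdc1a, which also act in mitosis, had no count in the 3 uninjured C57 libraries fitted and were at least 24.6-fold and 14.6-fold higher there. The left-out C57 library held all 5 genes, with 7.26 CPM of Spag5, 5.66 of Gsg2, 6.46 of E2f8, 4.59 of Troap and 2.80 of Depdc1a.

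The calls of many cell cycle genes depended on whether the left-out C57 library was used. With all 16 libraries 17 of the 40 were shared, in place of 33, and the summed level in the left-out C57 library was 1079 CPM, inside the range of the injured C57 libraries. Mki67, Birc5, Spag5, Gsg2, E2f8, Troap and Depdc1a were not called with all 16. The same library carried the epidermal counts given above, and the part of epidermis in its cell cycle level was not tested. The left-out MRL library had 277 CPM. Leaving out C57 injured replicate 1, the library with muscle RNA, gave 35 shared genes.

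Promoters of these genes are shown because the genes moved together. The windows run from 250 bases before to 50 bases after the start of the gene (RefSeq, GRCm38.p6), and 28 of the 33 shared cell cycle genes had an entry. A CCAAT box (CCAAT on either strand) stood in 21 of them (75.0%), against 37.9% of 27025 promoters and 38.1% of the 11284 promoters of tested genes. The letters TTTGAA, which occur in the cell cycle homology element, stood in 18 (64.3%) against 18.1% and 12.1%, and both motifs in 16 (57.1%) against 7.12% and 5.05%. TTCCCGC, the letters of an E2F site, stood in 1 (3.57%) against 4.66% and 8.21%. Among all shared risers with an entry (593), 23.8% had TTTGAA and 13.3% had both, and among the 145 shared fallers 14.5% and 4.83%. In the 4 promoters below, of genes whose values are given above, capitals mark CCAAT and TTTGAA on either strand, and no marked match overlaps another. They lie at chr10:69352863-69353162 (Cdk1, minus strand), chr9:70421505-70421804 (Ccnb2, minus strand), chr7:122159185-122159484 (Plk1, plus strand) and chr4:118437294-118437593 (Cdc20, minus strand).
Cdk1: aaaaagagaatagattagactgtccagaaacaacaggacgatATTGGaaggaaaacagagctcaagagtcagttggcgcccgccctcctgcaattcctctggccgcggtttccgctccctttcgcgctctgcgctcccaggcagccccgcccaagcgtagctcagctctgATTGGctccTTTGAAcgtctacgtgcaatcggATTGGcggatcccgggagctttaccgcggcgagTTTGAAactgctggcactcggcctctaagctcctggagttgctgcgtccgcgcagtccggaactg
Ccnb2: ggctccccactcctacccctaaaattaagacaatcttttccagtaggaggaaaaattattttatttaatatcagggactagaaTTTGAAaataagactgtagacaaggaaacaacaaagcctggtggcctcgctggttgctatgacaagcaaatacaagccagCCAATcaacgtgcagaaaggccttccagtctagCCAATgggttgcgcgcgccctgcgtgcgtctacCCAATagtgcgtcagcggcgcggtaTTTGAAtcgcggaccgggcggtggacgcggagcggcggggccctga
Plk1: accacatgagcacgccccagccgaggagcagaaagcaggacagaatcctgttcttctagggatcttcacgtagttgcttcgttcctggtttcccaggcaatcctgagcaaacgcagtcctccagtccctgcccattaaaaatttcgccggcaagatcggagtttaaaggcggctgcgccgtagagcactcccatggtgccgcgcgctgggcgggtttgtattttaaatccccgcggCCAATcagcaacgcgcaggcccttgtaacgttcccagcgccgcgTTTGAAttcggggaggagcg
Cdc20: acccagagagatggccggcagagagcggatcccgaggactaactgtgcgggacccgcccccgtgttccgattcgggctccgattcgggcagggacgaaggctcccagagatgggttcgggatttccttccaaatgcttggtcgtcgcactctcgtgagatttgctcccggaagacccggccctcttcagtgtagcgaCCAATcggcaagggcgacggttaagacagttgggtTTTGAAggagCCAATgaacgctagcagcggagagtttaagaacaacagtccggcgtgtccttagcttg
Cdk1 and Ccnb2 had 3 CCAAT and 2 TTTGAA matches each, Cdc20 had 2 and 1, and Plk1 had 1 of each. The Birc5 window held neither set of letters, although the gene moved with the others.

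Leukocyte genes rose in every member of their list. All 20 general leukocyte genes were shared risers, with a median log2 fold change of 1.98 (1.66 in C57 and 2.38 in MRL) and no overlap between injured and uninjured libraries in either strain for any of them. Their summed level was 372 to 488 CPM in uninjured and 1001 to 1939 CPM in injured C57 tendon, and 191 to 298 and 894 to 1662 CPM in MRL. Itgb2, the beta chain of the leukocyte integrins (chromosome 10, 77530252 to 77565708), was at 30.5, 50.9 and 34.2 CPM in uninjured C57 tendon and at 144, 115, 247 and 158 CPM after injury. In MRL the values were 9.85, 28.0 and 20.7 CPM, then 131, 101, 108 and 114 CPM. The injured C57 libraries lay mostly above the injured MRL libraries, and the log2 fold change was 2.32 ± 0.24 (SE).

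Ptprc, or CD45, carried by all leukocytes, was at 14.3 to 18.5 CPM in uninjured and 37.9 to 73.9 CPM in injured C57 tendon, and at 5.49 to 10.3 and 30.1 to 77.9 CPM in MRL. Lcp1, an actin bundler of leukocytes (log2 fold change 2.01 ± 0.28), and Cd53, a tetraspanin (2.07 ± 0.33), lay close to each other. Fgr, a Src family kinase (3.29), and Cd52, a surface glycoprotein (4.21), changed most in the list, and Evi2a (1.32) least. Spi1, the transcription factor PU.1 that directs myeloid development, had 1.65.

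Macrophage genes followed. Of 20 tested, 18 were called higher and 15 were shared, with a list median of 2.00 (2.13 in C57 and 1.95 in MRL). Lyz2, the lysozyme of myeloid cells (chromosome 10, 117277331 to 117282321), was the most abundant of them. It was at 810, 872 and 908 CPM in uninjured C57 tendon and at 3183, 5648, 5804 and 4685 CPM in injured, and at 618, 1014 and 959 CPM and then 5095, 2916, 3495 and 5305 CPM in MRL. The lowest injured library held over 2-fold the highest uninjured one, and the log2 fold change was 2.38 ± 0.20 (SE).

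Cd68, a lysosomal glycoprotein of macrophages, stood at 34.9 to 59.6 CPM before and 191 to 313 CPM after injury in C57, and at 40.8 to 64.4 and 108 to 249 CPM in MRL. Adgre1, the F4/80 antigen, had a log2 fold change of 1.78 ± 0.31. Ccr2, the receptor that brings monocytes out of the blood, had the largest change of the list (5.76), with 1.79 to 3.47 CPM in uninjured and 59.2 to 180 CPM in injured C57 tendon. Msr1, a scavenger receptor, had 2.75. Mrc1 (1.42), Cd14 (1.23) and Csf1r (1.03) were called but did not reach 2-fold in each strain. Of 20 genes of lipid-handling macrophages 6 were shared: Mmp12, Lpl, Acp5, Ctss, Trem2 and Ctsk. Ctss, a cysteine protease of the antigen-presenting pathway, was at 139 to 157 CPM in uninjured and 433 to 806 CPM in injured C57 tendon, and at 77.0 to 117 and 286 to 825 CPM in MRL.

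The left-out libraries were not used in choosing these genes. Of the 35 shared genes of the macrophage and leukocyte lists, 34 lay on the uninjured side of the C57 midpoint in the left-out C57 library, and 32 on the uninjured side of the MRL midpoint in the left-out MRL library. The midpoint is the mean of the injured and uninjured group means of log2(CPM + 1). The left-out C57 library was low for leukocyte and matrix lists alike. Its count therefore cannot separate the uninjured state from that low level. The same counts over all genes tested were not made. With all 16 libraries 19 of 20 leukocyte genes and 14 of 20 macrophage genes were shared.

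The RefSeq promoter window of Laptm5, a lysosomal membrane protein of leukocytes, holds GAGGAAG and is shown as an example. These letters are the kind of purine-rich core that PU.1 and other ETS factors bind. Of the 35 genes 25 had a promoter entry, and 9 of these (36.0%) held GAGGAAG on either strand, against 13.5% of all promoters, 21.1% of those of shared risers and 14.5% of those of shared fallers. The window is chr4:130913066-130913365 (plus strand, GRCm38.p6), and the capitals mark the match, which is on the opposite strand. GENCODE starts the gene at 130913125, inside this window, and the match lies after that start, within the gene so annotated.
Laptm5: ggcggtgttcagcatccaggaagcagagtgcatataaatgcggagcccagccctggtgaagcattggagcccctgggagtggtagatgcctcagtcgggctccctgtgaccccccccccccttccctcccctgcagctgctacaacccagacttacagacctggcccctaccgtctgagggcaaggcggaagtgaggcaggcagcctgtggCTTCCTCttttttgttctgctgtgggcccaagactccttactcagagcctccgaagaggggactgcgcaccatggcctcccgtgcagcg
Laptm5 was at 115, 122 and 154 CPM in uninjured C57 tendon and at 324, 384, 331 and 375 CPM after injury. The MRL libraries had 45.4, 83.2 and 70.9 CPM, then 295, 164, 229 and 232 CPM. All 8 injured libraries exceeded all 6 uninjured ones, by the narrow gap between 154 and 164 CPM.

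**Figure D3:**
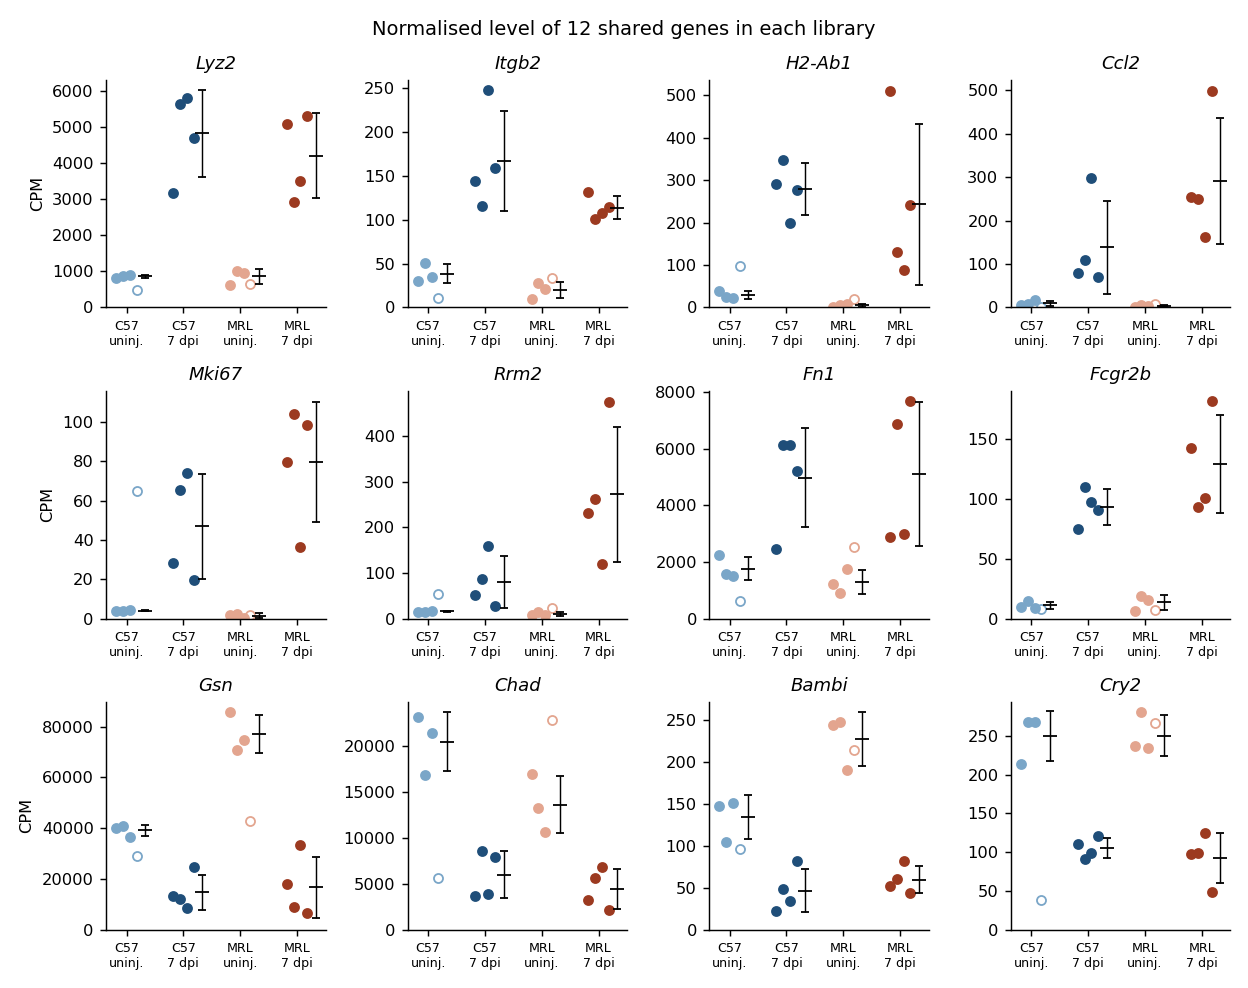
CPM of 12 shared genes in each library of the 4 groups, with filled points for the 14 libraries fitted, open points for uninjured replicate 4 of each strain, and the mean and SD of the filled points beside them. For Lyz2 the injured libraries lie between 2916 and 5804 CPM and the uninjured ones between 477 and 1014 CPM. For Mki67 the open C57 point (65.2 CPM) lies among the injured libraries, and for Chad the open C57 point (5607 CPM) does so as well.

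Antigen presentation on MHC class II rose as a whole. All 9 genes tested were called and shared, with a median log2 fold change of 4.21 (3.53 in C57 and 5.02 in MRL). With genes near the floor set to their bound, the medians were 3.36 and 4.78. The summed level was 99.3 to 162 CPM in uninjured and 991 to 1570 CPM in injured C57 tendon, and 24.3 to 59.3 and 575 to 3026 CPM in MRL. H2-Ab1, the beta chain of the I-A molecule (chromosome 17, 34257689 to 34269419), was at 39.6, 25.2 and 22.8 CPM in uninjured C57 tendon and at 290, 348, 199.8 and 278 CPM after injury. In MRL it was at 1.14, 4.66 and 9.29 CPM, then 511, 132, 89.3 and 240.5 CPM. The uninjured MRL libraries were below the uninjured C57 libraries, and the injured libraries of the strains overlapped.

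Cd74, the invariant chain that guards the peptide groove, was the most abundant of the list. It was at 76.5, 46.4 and 44.5 CPM before and 735, 759.6, 447 and 634 CPM after injury in C57, and at 11.7, 21.4 and 31.9 CPM before and 1634, 424, 350.1 and 755 CPM after injury in MRL. Ciita, the coactivator that switches on class II genes, had a log2 fold change of 3.07, and H2-DMa, H2-DMb1 and H2-DMb2, which load peptides, had 3.62, 4.46 and 3.98. The left-out C57 library had a summed class II level of 591 CPM, between the uninjured and injured C57 libraries, and the left-out MRL library 97.9 CPM, above its 3 uninjured partners. With all 16 libraries all 9 genes were still shared.

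Of 18 complement and Fc receptor genes 7 were shared, all higher. Fcgr2b, the inhibitory receptor for IgG, was at 9.98, 14.7 and 8.82 CPM in uninjured C57 tendon and at 74.7, 110.1, 97.9 and 91.0 CPM in injured, and at 6.10, 18.9 and 15.6 CPM and then 143, 93.2, 101 and 182 CPM in MRL. Its log2 fold change was 3.16 ± 0.25 (SE), with 3.06 in C57 and 3.26 in MRL. The activating receptors Fcgr1 (2.31) and Fcgr3 (2.26), the shared signalling chain Fcer1g (1.94) and the anaphylatoxin receptors C3ar1 (2.04) and C5ar1 (1.32) rose with it. C1qb (1.23) was called but not shared.

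Chemokines rose in 10 of 19 genes tested, and all 10 were shared. The list's median was 2.88, with 1.70 in C57 and 4.19 in MRL, or 3.33 in MRL with genes near the floor set to their bound. Ccl2, the ligand of Ccr2 (chromosome 11, 82035571 to 82037453), was at 5.84, 7.66 and 16.2 CPM in uninjured C57 tendon and at 78.8, 109, 297 and 69.7 CPM after injury. MRL tendon held it at 0.737, 4.81 and 3.68 CPM, then 254, 249, 163 and 499 CPM. Its log2 fold change was 3.81 in C57 and 6.57 in MRL. Ccl7 (4.95), Ccl8 (4.75) and Ccl12 (5.36), further monocyte attractants, and Ccl5 (3.81), which draws T cells, were shared.

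Ccl6 and Ccl9, chemokines of mouse myeloid cells, changed by similar amounts in the strains. Ccl6 had log2 fold changes of 3.83 in C57 and 3.33 in MRL, and Ccl9 2.92 and 2.83. Pf4, platelet factor 4, was at 88.6 to 136 CPM in uninjured and 307 to 393 CPM in injured C57 tendon, and at 36.0 to 79.5 and 101 to 268 CPM in MRL. Ccl17, a ligand of Ccr4 and no member of the list, was among the largest rises. In injured C57 tendon it had 18.2, 30.5, 37.3 and 7.604 CPM, and in injured MRL tendon 24.3, 43.8, 14.04 and 224 CPM, where replicate 4 stood far above the other libraries. The uninjured libraries fitted had at most 0.950 CPM.

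Il1rl1, the receptor of interleukin 33, was also among the largest rises, at 0.156 to 1.02 CPM before and 4.88 to 49.4 CPM after injury in C57 and at 0.362 to 1.24 and 35.5 to 182 CPM in MRL. Clec4b1, a C-type lectin of myeloid cells, was without a count in the 3 uninjured MRL libraries fitted, and its injured level there was at least 32.9-fold higher. The left-out MRL library had 0.733 CPM of it.

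Of 20 interferon-response genes 8 were shared: Mx1, Ifi44, Oas1a, Rsad2, Oasl2, Gbp3, Bst2 and Irf7. These act against viruses or, for Irf7, switch on interferon genes. Their levels were low. Bst2, or tetherin, was at 9.98, 6.81 and 6.24 CPM in uninjured C57 tendon and at 13.0, 37.7, 20.6 and 24.8 CPM after injury. In MRL it was at 3.22, 3.94 and 5.37 CPM and then 21.4, 7.66, 7.58 and 14.7 CPM. Mx1 stayed at or under 4.89 CPM in every library fitted. The count of shared genes in this list ranged from 4 to 9 when a library was left out, and was 6 with all 16 libraries, where Bst2 was not called.

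Of the 8 genes 7 had a promoter entry, and 4 of them (57.1%) held the core of the interferon-stimulated response element (TTTC repeated after any 2 bases, on either strand), against 3.49% of all promoters, 7.42% of those of shared risers and 4.83% of those of shared fallers. The Bst2 window is shown because it holds 2 such matches. It is chr8:71537423-71537722 (minus strand, GRCm38.p6), and the capitals mark the matches, which overlap each other and are on the opposite strand.
Bst2: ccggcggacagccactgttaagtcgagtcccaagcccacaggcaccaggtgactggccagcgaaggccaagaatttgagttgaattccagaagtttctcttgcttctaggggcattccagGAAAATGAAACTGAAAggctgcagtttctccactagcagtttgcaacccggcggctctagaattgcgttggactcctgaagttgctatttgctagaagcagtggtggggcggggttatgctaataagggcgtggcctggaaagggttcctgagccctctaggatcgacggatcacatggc
These letters are a description of the window and say nothing about which factor is bound.

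Markers of other leukocytes gave fewer shared genes. Of the 14 neutrophil genes listed 5 were tested, and Lcn2, an iron-binding protein also made by stressed stromal and epithelial cells, was the shared one. The 5 genes did not move together: their median log2 fold change was -3.15 in C57 and 3.94 in MRL. Lcn2 was at 10.5, 5.24 and 14.7 CPM in uninjured and 61.6, 76.7, 28.5 and 122 CPM in injured C57 tendon, and at 25.6, 5.83 and 45.2 CPM and then 86.3, 93.7, 139 and 643 CPM in MRL. Of the 14 T lymphocyte genes listed 4 were tested, and Cd2 and Il7r were shared. Cd2 reached at most 7.89 CPM and Il7r at most 15.4 CPM.

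Collagen genes gave a smaller response than the leukocyte genes. Of 11 fibrillar collagen genes Col5a1 was shared, with a log2 fold change of 1.25 ± 0.25 (SE). Col5a1, which sets fibril diameter, was at 404, 390.03 and 479.7 CPM in uninjured and 458, 1564, 791 and 679 CPM in injured C57 tendon, and at 531, 481 and 393 CPM and then 1043, 2039, 1020.1 and 1037 CPM in MRL. In C57 the lowest injured library was below the highest uninjured one. Col3a1, the collagen of early repair tissue, fell just short of the fold limit (0.97 ± 0.27, adjusted p 0.0239, edgeR). It was called with all 16 libraries, with the left-out MRL library alone added, and with library totals as the only scaling. With all 16 libraries 2 fibrillar collagen genes were shared. Col1a1 (0.49 ± 0.25, adjusted p 0.208) and Col1a2 (0.60 ± 0.24, adjusted p 0.112), which form the bulk of tendon collagen, were not called by edgeR.

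Col1a1 was among the most abundant genes before injury, at 4998 to 6414 CPM in C57 and 5672 to 10446 CPM in MRL, and reached 4285 to 10931 CPM and 6937 to 19234 CPM after it. Col8a1 (1.28), Col14a1 (2.26) and the basement membrane protein Nid2 (2.17) were shared risers, and Col8a2 (-1.28) was a shared faller. Among 22 genes of collagen maturation, P4ha3, a prolyl hydroxylase subunit (2.98 ± 0.38), Loxl1, a cross-linking oxidase (2.23 ± 0.36), Adamts14, a procollagen protease (2.17 ± 0.67), and Serpinh1, the collagen chaperone (1.12 ± 0.20), were shared. Adamts14 lost its call or its place among the shared genes in 9 of the 14 fits that left out a library.

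Of 23 genes of the provisional matrix and its relatives 6 were shared, all higher. Fn1, fibronectin (chromosome 1, 71585520 to 71653200), was at 2248, 1568 and 1495 CPM in uninjured and 2451, 6130, 6134 and 5214 CPM in injured C57 tendon. Its MRL values were 1218, 907 and 1757 CPM before and 2869, 6869, 2983 and 7694 CPM after injury. The log2 fold change was 1.73 ± 0.29 (SE), and the groups did not overlap, though C57 injured replicate 1 was only slightly above the highest uninjured library. Cthrc1, a secreted protein of activated fibroblasts (chromosome 15, 39076932 to 39087121), was at 1.22, 3.99 and 1.25 CPM before and 19.5, 386, 149 and 13.3 CPM after injury in C57, and at 0.804, 1.02 and 1.45 CPM before and 133, 49.3, 47.4 and 77.5 CPM after injury in MRL. Its log2 fold change of 6.07 ± 0.86 was close in the strains (6.03 and 6.12), although the injured C57 libraries spanned a wide range.

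Tnc, tenascin C, had a log2 fold change of 5.43, Wisp1 1.93, the microfibril genes Fbn1 and Mfap5 1.45 and 2.33. Lrrc15, a surface protein of matrix-producing fibroblasts, was at 0.078 to 0.851 CPM in uninjured and 2.44 to 85.3 CPM in injured C57 tendon, and at 0 to 0.965 and 8.69 to 20.4 CPM in MRL. Sfrp2 and Wisp2 of the same list of 18 fibroblast progenitor genes were shared as well, Sfrp2 in 8 of the 14 fits that left out a library. Acta2, smooth muscle actin and the usual myofibroblast marker, was not called (0.62 ± 0.51, adjusted p 0.461, edgeR) and ranged from 26.9 to 928 CPM over the injured libraries.

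Matrix proteases and their inhibitors held 8 shared genes of 27. Mmp12, the macrophage elastase (chromosome 9, 7344381 to 7369499), had no count in uninjured C57 tendon and 4.12, 17.0, 46.6 and 33.4 CPM after injury, at least 120-fold higher. In MRL it had at most 0.060 CPM before and 32.6, 36.7, 135 and 643 CPM after injury. Mmp3, stromelysin, was at 4.52 to 10.5 CPM before and 18.9 to 50.7 CPM after injury in C57, and at 8.96 to 49.6 and 199 to 2607 CPM in MRL. Timp1, an inhibitor of these enzymes, was at 52.2 to 101 and 129 to 488 CPM in C57 and at 43.3 to 69.0 and 533 to 5136 CPM in MRL. For all 3 genes the highest value was that of MRL injured replicate 4. Mmp14, the membrane-bound protease that activates others, was steadier (1.25 ± 0.21).

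Several shared fallers were abundant in uninjured tendon. Gsn, gelsolin, an actin-severing protein that is also secreted (chromosome 2, 35256380 to 35307892), was at 40178, 40735 and 36498 CPM in uninjured C57 tendon and at 13484, 11956, 8642 and 24818 CPM after injury. In MRL it was at 85701, 71020 and 74768 CPM and then 17898, 8765, 33348 and 6760 CPM. Its log2 fold change was -1.82 ± 0.33 (SE). Angptl7, an angiopoietin-like secreted protein (chromosome 4, 148495183 to 148500460), was at 21369, 26886 and 28571 CPM before and 5330, 6900, 12055 and 9173 CPM after injury in C57. In MRL its levels were 21187, 24697 and 20622 CPM before and 16000, 9959, 15738 and 2079 CPM after injury. No injured library reached the uninjured libraries fitted of its strain for either gene, and MRL injured replicate 4 was the lowest of its group for both. The left-out C57 library had 7748 CPM of Angptl7, inside the injured C57 range.

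Chad, or chondroadherin, a collagen-binding protein of cartilage and tendon (chromosome 11, 94565047 to 94569127), was at 23206, 16931 and 21455 CPM before and 3691, 8623, 3857 and 7920 CPM after injury in C57. In MRL it was at 16958, 13295 and 10696 CPM, then 3210, 5669, 6812 and 2132 CPM. The log2 fold change was -1.69 ± 0.27. Clu, clusterin, an extracellular chaperone, was at 6195 to 7777 CPM before and 1130 to 2633 CPM after injury in C57 and at 6922 to 8365 and 1807 to 4655 CPM in MRL. Lect1, or chondromodulin, a relative of tenomodulin, was much higher in uninjured MRL (56.4 to 103 CPM) than in uninjured C57 tendon (3.75 to 5.56 CPM), and was lower after injury in both, with log2 fold changes of -1.74 in C57 and -3.21 in MRL.

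Coch, Fbln1, Tnxb, Cilp2 and Nrep, further matrix or secreted proteins or proteins of fibroblasts, were shared fallers with log2 fold changes of -1.98, -1.79, -1.73, -1.28 and -1.42. Coch was not shared in 12 of the 14 fits that left out a library and was not called with all 16 libraries. Gsn, Angptl7, Coch, Fbln1 and Tnxb were named after their values were seen. Of 17 tenocyte genes Cilp2 and Clu were shared fallers and Kera a shared riser, which was not shared in 10 of those 14 fits, and the list's count ranged from 1 to 4. The defining tenocyte markers were not called: Scx had -0.53 ± 0.18 (adjusted p 0.0557), Mkx -0.69 ± 0.26 (0.0893), Tnmd 0.12 ± 0.53 (0.911) and Fmod -0.23 ± 0.17 (0.416), all by edgeR. Without MRL injured replicate 1, which had 624 CPM, Tnmd had -0.66 (adjusted p 0.200 by edgeR). Lum (1.10 ± 0.22), the small proteoglycan lumican, was a shared riser.

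Signalling genes moved in both directions. Of 27 genes of the TGF-beta and BMP pathways 3 were shared risers and 4 shared fallers. The risers were the latent TGF-beta binding proteins Ltbp1 (1.11) and Ltbp2 (3.91) and the secreted glycoprotein Fstl1 (1.37). The fallers were the ligands Bmp4 (-1.28) and Inhbb (-2.23), the inhibitory Smad6 (-1.32) and Bambi (-1.73), a decoy receptor. Bambi was at 147, 104 and 152 CPM before and 22.1, 48.2, 34.7 and 81.8 CPM after injury in C57, and at 244, 248 and 190.01 CPM before and 52.4, 60.5, 81.5 and 44.3 CPM after injury in MRL. Tgfb1 itself was under the fold limit (0.78 ± 0.21, adjusted p 0.0210, edgeR).

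In the list of 28 WNT, IGF, PDGF and FGF genes, Wnt2 (1.78) and Pdgfb (1.61) were shared risers, and Igfbp4 (-1.37) and Igfbp6 (-1.32), which bind insulin-like growth factors, shared fallers. Wnt2 was not shared in 9 of the 14 fits that left out a library. Igfbp6 was at 2117, 2157 and 2778 CPM in uninjured and 640.4, 883, 972 and 855 CPM in injured C57 tendon, and at 2674, 2730.01 and 1771 CPM and then 1348, 1038, 1394 and 548 CPM in MRL, and the left-out C57 library had 881 CPM. Outside the list, the WNT receptors Fzd8 (-1.75) and Fzd9 (-2.06), the ligand Fgf9 (-1.95), the FGF antagonist Spry1 (-1.52), the insulin receptor substrate Irs2 (-1.99) and the leptin receptor Lepr (-1.81) were shared fallers, and were picked from the table after their values were seen.

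Several transcription factors of limb patterning were among the shared fallers. Msx1 (chromosome 5, 37820485 to 37824583) was at 319, 264 and 342 CPM in uninjured C57 tendon and at 67.0, 101, 97.2 and 115 CPM after injury. The MRL values were 186, 162 and 194 CPM, then 67.1, 41.2, 87.4 and 23.0 CPM. Its log2 fold change was -1.70 in C57 and -1.72 in MRL, and the left-out C57 library had 53.5 CPM, below the injured C57 libraries. Hand2 (-1.57 ± 0.20) and Tbx4 (-1.26 ± 0.27) changed less, and Lhx2 had -2.37 in C57 and -1.0002 in MRL. These genes were chosen after their values were seen, and no list of such factors was tested.

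Of 16 circadian clock genes Cry2 and Per2 were shared fallers. Cry2, a repressor of the clock, was at 213, 268 and 268 CPM before and 111, 90.9, 99.2 and 120.4 CPM after injury in C57, and at 236, 281 and 234 CPM before and 97.7, 98.5, 125 and 48.1 CPM after injury in MRL. With all 16 libraries neither was shared, and the left-out C57 library had 37.9 CPM of Cry2. The hour of tissue collection is not given in the labels, and its part in these values was not tested. Of 20 stress and immediate early genes Dusp1 (-1.40) and Nr4a2 (-1.18, not called with all 16 libraries) were shared fallers and Fosl1 (2.95) a shared riser, and this list's summed level was the one that stood apart in the left-out MRL library.

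The largest falls among genes with no overlap included Cyp24a1, the vitamin D 24-hydroxylase, at 13.0, 43.4 and 5.46 CPM in uninjured and 0 CPM in every injured C57 library, and at 23.0 to 46.4 and 0 to 7.18 CPM in MRL. Asgr1, a lectin of the asialoglycoprotein receptor, was at 1.22 to 1.57 CPM before and at most 0.125 CPM after injury in C57, and at 6.16 to 11.7 and 0 to 1.74 CPM in MRL, with 0.081 CPM in the left-out MRL library. Aldh3a1, an aldehyde dehydrogenase, was more abundant, at 317, 388 and 489.9 CPM and then 29.3, 70.2, 52.2 and 81.0 CPM in C57, and at 261, 273 and 147 CPM and then 43.8, 36.8, 79.95 and 7.26 CPM in MRL, with 71.5 CPM in the left-out C57 library. Oxtr, the oxytocin receptor, had log2 fold changes of -2.56 in C57 and -2.50 in MRL, and Wnk4, a kinase that controls salt transport, -2.41 and -2.44. Oxtr was not called with all 16 libraries.

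Some shared genes moved with the epidermal or muscle counts of single libraries, and the part of these tissues in their calls was not tested. Flg and Lor, proteins of the cornified skin layer, were shared fallers with log2 fold changes of -6.35 and -5.31. Flg was at 0.136, 0 and 198 CPM in uninjured C57 tendon and 0.0624 to 0.852 CPM in injured, and at 262, 0.0729 and 0.0603 CPM and then 0.490 to 2.42 CPM in MRL, so 1 uninjured library of each strain held the level. The same 2 libraries had the highest epidermal shares among those fitted (0.140% and 0.097%). Of the 16 epidermal genes tested these 2 were shared, and neither was shared when either of those libraries was left out. Klk7 and Lce1a1, of skin as well, had the same pattern.

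The muscle genes Myoz1, Myoz2 and Cacng1, none of them in the muscle list, were shared risers. Myoz1 was at 1331, 40.5, 0.721 and 0.0717 CPM in the injured C57 libraries and at 0, 0.917, 0 and 1.69 CPM in the injured MRL libraries, beside at most 0.785 CPM without injury. The 2 injured C57 libraries with muscle counts held nearly the whole level. The 12 tested genes of the muscle list had medians of 9.63 in C57 and -0.50 in MRL. Cox5a (1.34) and Hk2 (1.97), of mitochondria and glucose use, were highest in the same C57 library and were the only shared genes of the oxidative phosphorylation and glycolysis lists (20 and 19 tested), and neither was shared without that library.

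**Figure D4:**
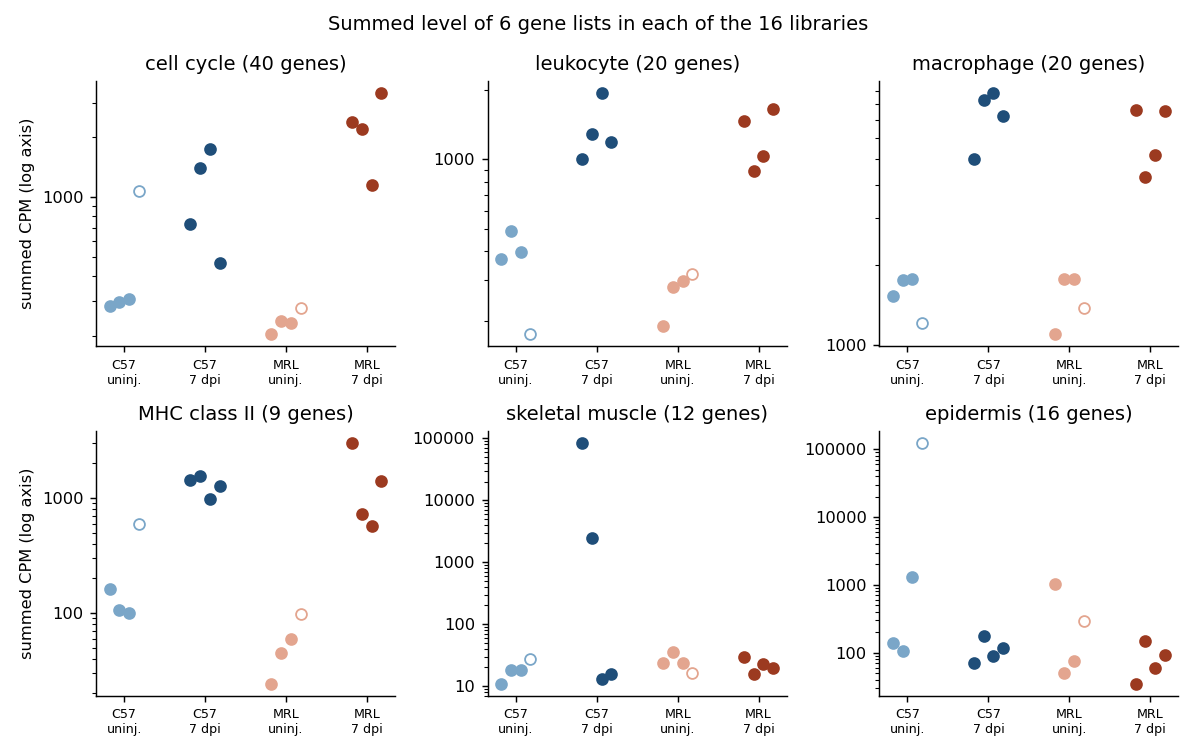
Summed CPM of 6 gene lists in each of the 16 libraries on log axes, with filled points for libraries fitted and open points for uninjured replicate 4 of each strain. Cell cycle, leukocyte, macrophage and MHC class II sums separate injured from uninjured filled points in both strains, and the open C57 point for the cell cycle (1079 CPM) lies among the injured libraries. Muscle counts stand out in C57 injured replicates 1 and 2, and epidermal counts in the open C57 point and in 1 filled uninjured point of each strain.

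Where the shared genes lie in the genome was also described. Of the 813 risers 794 had a single entry in the annotation (GENCODE M21, GRCm38), and 96.2% of these were protein-coding. The share was 79.9% for the 224 fallers with an entry and 85.3% for all tested genes. Risers had a median mean level of 2.18 CPM in uninjured tendon and 14.3 CPM in injured, and fallers 19.4 and 5.71 CPM.

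Of 13570 tested protein-coding genes put in order along the chromosomes, 943 were shared. In that order there were 19 runs of at least 3 neighbours that were all shared in the same direction. Of these 17 were of risers and 2 of fallers, with 69 genes in all. The number of runs expected at that share was not computed. Neighbours need not lie close: the run of Rgs18, Pla2g4a and Ptgs2 spanned 5356 kb. The longest had 6 genes each: Ifi209, Ifi207, Ifi204, Mndal, Ifi211 and Ifi203 on chromosome 1 (173630917 to 173942672), a family of interferon-inducible DNA sensors, and Clec4a1, Clec4a3, Clec4b1, Clec4a2, Clec4n and Clec4d on chromosome 6 (122921848 to 123275265), lectin receptors of myeloid cells. A run of 5 Ms4a genes lay on chromosome 19, runs of 4 Cd300 and of 4 Slfn genes on chromosome 11, and 2 runs of 4 genes each in the MHC on chromosome 17. The falling runs were Rsad1, Acsf2 and Chad on chromosome 11 and 3 Lce1 genes of cornified skin on chromosome 3. Members of these families have near-identical copies, and how reads were divided between them is not known.

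The strains were next compared for the size of the response. The rise was larger in MRL for 499 of the 813 risers, and the fall was larger in MRL for 121 of the 229 fallers. No gene passed an adjusted p of 0.05 for the interaction of strain and injury (edgeR, 14 libraries, smallest adjusted p 0.0906), while DESeq2 called 249 on the same libraries and edgeR called 25 without MRL injured replicate 3. At an unadjusted p under 0.05 there were 1735 of 16391 genes (10.6%). Among the shared genes 109 (10.5%) had such a p, close to the background, and choosing genes with the same sign in both strains limits how far they can differ. The median SE of the interaction over the shared genes was 0.90 on the log2 scale, beside 0.50 for the injury term, so the difference between the strains was measured less precisely than the injury effect.

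Some shared genes had unequal fold changes in the strains. Ltbp2 was at 24.3 to 37.6 CPM in uninjured C57 and 0.482 to 5.09 CPM in uninjured MRL tendon, and at 97.4 to 196 and 75.0 to 353 CPM after injury, with log2 fold changes of 2.07 and 6.53. Timp1 (2.08 and 5.18), Rrm2 (2.37 and 4.73), Ccl2 (3.81 and 6.57) and the class II genes H2-Ab1 (3.25 and 5.59) and H2-Aa (3.36 and 5.18) also had larger fold changes in MRL. Adamts14 (3.21 and 1.24) and Col14a1 (3.20 and 1.36) had larger ones in C57. For H2-Ab1 the injured means were 279 CPM in C57 and 243 CPM in MRL, and the uninjured means 29.2 and 5.03 CPM.

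Fits of each strain alone share no library with each other. The C57 fit (4 injured and 3 uninjured libraries) called 750 of 14983 genes (5.01%), 524 of them higher. The MRL fit called 909 of 14868 genes (6.11%), 696 of them higher. Both fits called 288 genes, which is 38.4% of those of C57 and 31.7% of those of MRL, and 287 of these had the same direction.

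The genes called in a strain were then read in the other. Of the 750 C57 genes 715 were tested in MRL, where 654 (91.5%) had the same sign and 474 (66.3%) also exceeded 2-fold. Of the 909 MRL genes 874 were tested in C57, where 805 (92.1%) had the same sign and 505 (57.8%) exceeded 2-fold. Among all 14009 genes tested in both fits, 66.3% had the same sign, 17.0% exceeded 2-fold in MRL in the direction of C57 and 14.9% did so in C57 in the direction of MRL. These shares are a description, since genes are not independent of each other. Of the 1042 shared genes 476 were called in the C57 fit and 511 in the MRL fit, 285 in both and 340 in neither, so the shared set rests in good part on pooling the strains.

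The left-out uninjured libraries gave values that the choice of genes did not use. The same counts over all genes tested were not made, so the shares below have no background beside them. The left-out C57 library was also low for many tendon and leukocyte lists, as given above. In the left-out MRL library 613 of the 813 risers (75.4%) were below all 8 injured libraries and 173 of the 229 fallers (75.5%) above all of them. In the left-out C57 library the counts were 444 (54.6%) and 79 (34.5%). Measured against the midpoint of its own strain, the MRL library was on the uninjured side for 716 risers (88.1%) and 168 fallers (73.4%), and the C57 library for 540 risers (66.4%) and 99 fallers (43.2%). Of the cell cycle genes, all 33 were on the uninjured side in the MRL library and 3 of 33 in the C57 library. With both libraries in the fit 796 genes were shared, and 682 of the 1042 (65.5%) were among them. With the left-out MRL library alone added 1128 genes were shared, and 969 of the 1042 (93.0%) were among them.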

How the data were processed

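RNA-seq was available for 16 mouse flexor tendon libraries, grouped by the strain and time point in their labels. Single-end reads of 100 nt were trimmed by the authors with Trimmomatic 0.36 and mapped with STAR 2.5.2b to GRCm38.p5, and the deposited values are whole-number counts per gene symbol, with no normalization. Subread 1.5.0p3 and featureCounts are named in the submitters' processing notes, and the annotation and strand setting of counting are not given in the sources used here, so overlapping, antisense and near-identical genes are uncertain. The labels name a TruSeq kit and the methods a low-input pre-amplification, so reads may not be independent molecules, and floors of 3 counts cover counting error only. The methods describe RNA from single tendons and 4 animals per group.

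edgeR 4.0.16 in R 4.3.3 was run with its expression filter, TMM factors and the robust quasi-likelihood test on 14 libraries, with strain and injury as terms. Fold changes per strain came from a fit of 4 group means on the same libraries, and standard errors from the fold change and F statistic. Each strain was also fitted alone. DESeq2 1.42.0, other normalizations, filters and left-out libraries were alternatives. Uninjured replicate 4 of each strain was left out by the rule that defined the genes. The members, the 34 gene lists and the tests were chosen with earlier results of these data known. Named genes were the 12 largest rises and falls of at least 5 mean CPM without overlap of libraries, up to 4 shared genes a list, 13 fixed anchors, the neighbours of the thresholds, and genes said to have been picked after their values were seen. Injured replicates were numbered in accession order. Promoters and coordinates came from RefSeq (GRCm38.p6) and GENCODE M21.

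The tests were checked on simulated counts in which 200 genes were changed. For the injury term 72.9% of the 4-fold and 84.0% of the 8-fold changes were called among 15805 genes, with 5 other genes, and none was called when none was changed. For the interaction 37.1% and 60.4% were called among 15781 genes.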

Additional observations from a re-analysis of the deposited data

Results flagged for a closer look

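Among 129 genes examined and the shares of epidermal and muscle counts, 28 values stood apart from the other 3 libraries of their group of 4 by Dixon's test. Chance flags about 1 in 20 groups, and 265 groups were examined. Each strain's uninjured group of the fit had 3 libraries and was not examined for genes.

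C57 injured replicate 1 stood high for the muscle genes Myoz1 (1331 CPM), Cacng1 (269 CPM) and Myoz2 (149 CPM) and for Cox5a (243 CPM) and Hk2 (88.3 CPM), and 9.67% of its counts lay on muscle genes. C57 uninjured replicate 4, not in the fit, had 10.5% of its counts on epidermal genes.

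MRL injured replicate 4 stood high for Mmp3 (2607 CPM), Mmp12 (643 CPM), Lcn2 (643 CPM), Ccl17 (224 CPM), Cox5a (158 CPM) and Il7r (15.4 CPM). MRL injured replicate 1 stood high for Tnmd (624 CPM) and Adamts14 (8.36 CPM), and MRL injured replicate 2 for Col5a1 (2039 CPM), Serpinh1 (1278 CPM) and, at 0.046 CPM beside 0 in the others, Flt4. MRL injured replicate 3 stood high among low values for Cyp24a1 (7.18 CPM), Slc16a11 (5.84 CPM) and Ppp2r2b (5.66 CPM).

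C57 injured replicate 2 stood high for P4ha3 (138 CPM), Col14a1 (69.8 CPM), Mmp3 (50.7 CPM) and Asgr1 (0.125 CPM beside 0 in the others). C57 injured replicate 4 stood low for Pdgfb (7.68 CPM), and had Klk7 and Lce1a1 at 0.0717 CPM each beside 0 in the others.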

How the results depend on the processing

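The injury term called 753 to 988 genes higher and 293 to 393 lower when a library was left out, and 652 to 819 risers and 190 to 276 fallers were shared. In those 14 fits 76.6% to 93.1% of the 1042 shared genes were kept, and 621 were kept in every fit. The other normalizations kept 98.4% to 99.3%, DESeq2 96.2% and thinned counts 96.3%. Testing against a fold change of 2 gave 359 higher and 22 lower genes, with 358 and 22 shared. DESeq2 called 580 genes lower, with 355 shared. Asking for the same sign alone left 364 shared fallers, and asking for a call in each strain's own fit left 243 risers and 44 fallers. The interaction, with 0 genes, gave 249 by DESeq2, 6 with no filter, and 0 to 25 with a library left out. The C57 fit (750) gave 155 with all 16 libraries, 1467 by DESeq2, 86 against a fold change of 2 and 207 to 867 with a library left out (386 without injured replicate 2 and 278, 207 and 222 without uninjured replicates 1 to 3). The MRL fit (909) gave 1750, 222 and 294 to 1110 under the last 3 of these (530 without injured replicate 2 and 294, 313 and 385 without uninjured replicates 1 to 3). For the named genes that were not called, Cdkn1a ranged from -0.28 to 0.012 (without C57 uninjured replicate 3) and Tnmd from -0.66 (without MRL injured replicate 1) to 0.28 on the log2 scale with a library left out. The cause of these changes was not tested. No paired analysis was possible because the injured libraries carry no replicate number in the labels. With 3 or 4 libraries a group and totals of 12883569 to 23741648 counts in the fit, changes of genes near 3 counts a library were not well measured.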
